A study of Mus musculus with 6 samples.

Results

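The genes described here are 3 receptors of fibroblast growth factors (FGFs), Fgfr1, Fgfr2 and Fgfr3, and 7 genes that restrain or report signalling below them, Spry1, Spry2, Spry4, Spred1, Spred2, Etv5 and Dusp6. They were taken by symbol from the deposited count table, and all 10 of the 10 names matched 1 row each among 22001 genes. All 10 had enough counts to enter the test, as did 13560 genes of the table. The cells were mCherry-positive neocortical cells of mouse embryos that had been electroporated in utero at E13.5, when plasmid DNA in the ventricle is driven into the cells lining it, and isolated by FACS (fluorescence-activated cell sorting) 24 h later at E14.5. The control group (3 libraries) received a plasmid encoding only mCherry, and the Insm1 group (3 libraries) a plasmid encoding both Insm1, a zinc-finger transcription factor of neural progenitors, and mCherry. Neither the promoter of the plasmids nor the strain is named in the labels, and the mCherry-positive cells are a mixture of whatever took up the plasmid and their daughters. Whether the libraries of a group are separate litters is not stated, and the p-values reflect only how far these libraries differ from each other, some of which may be technical.

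FGF receptors are receptor tyrosine kinases. Ligand binding brings receptors together, the adaptor Frs2 passes the signal to Ras, and the kinases Raf, Mek and Erk carry it to the nucleus. Erk signalling raises transcription of ETS factors such as Etv5 and of its own inhibitors, among them the Sprouty proteins, which act upstream of Raf, and Dusp6, a phosphatase that removes the activating phosphates from Erk. The Spred proteins, relatives of Sprouty, hold back Ras activation at the membrane. In the embryonic cortex Fgfr1, Fgfr2 and Fgfr3 are genes of radial glia, the progenitors at the ventricular surface, where FGF signalling is known to favour progenitor maintenance.

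Library totals lay between 30017645 and 31645135 counts. Insm1 itself was at 222, 331 and 371 CPM (counts scaled to a common library size) in controls 1, 2 and 3 and at 1570, 2173 and 1436 CPM in Insm1 libraries 1, 2 and 3, so the labels and the transcript went together. Counts are per gene and do not tell plasmid from chromosomal transcripts. CPM here are scaled by the trimmed mean of M values (TMM). Differences were tested with edgeR's quasi-likelihood test over all 13560 genes with Benjamini-Hochberg adjustment, and a gene was called at an adjusted p below 0.05. Markers of radial glia and of neurons were present in all libraries, summing to between 2918 and 4961 CPM over 18 radial glia genes and to between 7596 and 9545 CPM over 12 neuron genes. The 7 endothelial markers (most abundant Kdr) summed to at most 2.14 CPM in any library. Summed markers of oligodendrocyte precursors (most abundant Olig2), pericytes or meningeal fibroblasts (Col1a1) and choroid plexus (Otx2) stayed at or below 5.20 CPM and those of microglia (Csf1r) at or below 57.7 CPM, and no marker was at 0 in all libraries. Interneuron markers (most abundant Lhx6) summed to 8.37 to 16.3 CPM in the controls and 5.53 to 8.21 CPM in the Insm1 libraries. Cajal-Retzius cell markers (Reln) summed to 130, 34.0 and 127 CPM in controls 1, 2 and 3 and to 34.6 to 51.3 CPM in the Insm1 libraries, so that controls 1 and 3 stood apart from all others. Red blood cell transcripts differed widely between libraries, with 5 markers (most abundant Hba-a1) summing to 405, 3132 and 186 CPM in controls 1, 2 and 3 and to 1713 to 3667 CPM in the Insm1 libraries, so that control 2 lay inside the range of the Insm1 group. The part of these cell types in the results was not tested.

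Of the 10 genes, 4 fell in the Insm1 libraries and 0 rose, and 6 did not pass the test (at an unadjusted edgeR p below 0.05, 7 were lower and 0 higher, and DESeq2 and limma-voom called 0 higher). Those that fell were the 3 receptors and Spred1. In bulk RNA fewer cells of a type and less RNA per cell cannot be told apart. Over all tested genes an adjusted p below 0.05 called 3.35%, with 2.12% lower and 1.23% higher. The share of all tested genes at an unadjusted p below 0.05 was not taken. Counts at an unadjusted p, here and below, therefore have no background to be read against. In 6 of the 10 (Fgfr1, Fgfr2, Fgfr3, Spred1, Etv5 and Dusp6) each Insm1 library lay below each control, which was so for 11.8% of all tested genes. No gene of the 10 had its Insm1 libraries wholly above the controls. The median log2 fold change was -0.41 over the 10 genes and -0.0086 over all tested genes. These calls were set against other settings. Limma-voom, 2 other scalings, 2 other low-count filters, a fit that was not robust and a fit without the Insm1 counts all called the same 4 genes. Fgfr3 passed narrowly, at an adjusted p of 0.04997 in limma-voom and 0.0477 in edgeR's fit that was not robust. Limma-voom called 1.71% of all genes lower. Limma on deposited log2(TPM + 1) or log2(TPM + 0.1) called only Fgfr1 of the 10, where it called 0.342% and 0.364% of all genes lower, and limma on TPM recomputed by exon length called the 4 again, where it called 2.16%. With single libraries left out, all 4 were called without control 2 (3.08% of all genes lower), 3 without control 1 (1.01%), Insm1 library 1 (1.58%), Insm1 library 2 (0.959%) or Insm1 library 3 (1.03%), and 2 without control 3 (0.538%). The list was drawn up with earlier results of these data known, so its direction is not independent evidence.

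**Figure D1:**
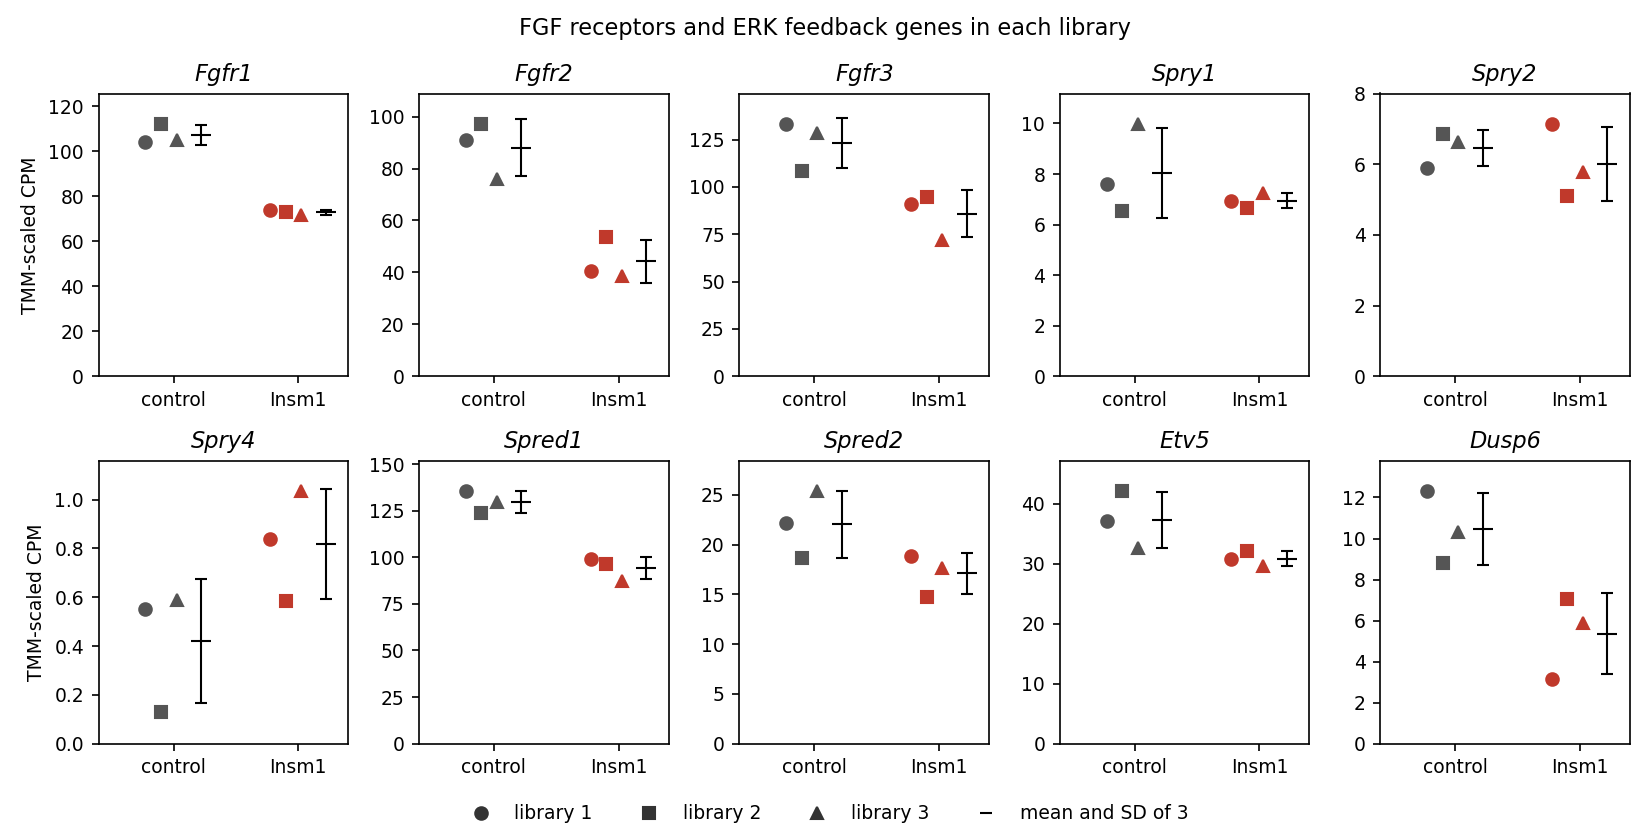
TMM-scaled CPM (linear axes from 0) of each of the 10 genes in the 3 control libraries (grey) and the 3 Insm1 libraries (red), with the mean and SD of 3 libraries beside each group and a marker shape for the library number. The groups stand apart for the 3 receptors, Spred1, Etv5 and Dusp6, and overlap for the other 4 genes.

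RefSeq promoter windows (GRCm38.p6, from 250 bases before to 50 after a gene's start) were found for 8 of the 10 genes, 10 windows in all, and not for Fgfr1 and Spry4. RefSeq starts, as for Fgfr2 and Spred1, can lie apart from those of the GENCODE annotation. Windows of Fgfr2, Fgfr3 and Spred1 are printed because these genes fell. That of Dusp6 is printed because it is 1 of the 2 genes with a window that holds a match to a motif searched for. A second Fgfr3 window, at chr5:33722056-33722355 (plus strand), held no match to either motif searched for and is not printed. The first 280 bases of each printed window are shown, ending 30 bases after the start. Fgfr3 is at chr5:33721474-33721753 (plus strand), Fgfr2 at chr7:130266779-130267058 (minus strand), Spred1 at chr2:117120821-117121100 (plus strand) and Dusp6 at chr10:99262981-99263260 (plus strand). Each is written 5′ to 3′ on the strand of the gene, and capitals mark a match to the motif CAGGGGG on either strand.
Fgfr3: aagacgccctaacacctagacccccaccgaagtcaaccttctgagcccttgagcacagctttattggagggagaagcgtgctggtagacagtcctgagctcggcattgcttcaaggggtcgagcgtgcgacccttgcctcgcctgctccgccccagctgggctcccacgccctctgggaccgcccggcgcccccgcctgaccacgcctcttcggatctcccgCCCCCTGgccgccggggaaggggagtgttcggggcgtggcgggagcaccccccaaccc
Fgfr2: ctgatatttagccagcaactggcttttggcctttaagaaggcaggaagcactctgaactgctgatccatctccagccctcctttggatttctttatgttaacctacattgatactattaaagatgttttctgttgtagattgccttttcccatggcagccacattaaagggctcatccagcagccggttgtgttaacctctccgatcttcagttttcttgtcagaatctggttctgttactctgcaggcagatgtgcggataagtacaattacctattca
Spred1: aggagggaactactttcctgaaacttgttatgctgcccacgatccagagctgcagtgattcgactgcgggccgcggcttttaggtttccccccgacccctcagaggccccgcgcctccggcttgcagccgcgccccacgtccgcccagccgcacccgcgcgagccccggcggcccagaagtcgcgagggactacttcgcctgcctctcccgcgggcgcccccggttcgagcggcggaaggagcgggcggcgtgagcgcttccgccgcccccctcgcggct
Dusp6: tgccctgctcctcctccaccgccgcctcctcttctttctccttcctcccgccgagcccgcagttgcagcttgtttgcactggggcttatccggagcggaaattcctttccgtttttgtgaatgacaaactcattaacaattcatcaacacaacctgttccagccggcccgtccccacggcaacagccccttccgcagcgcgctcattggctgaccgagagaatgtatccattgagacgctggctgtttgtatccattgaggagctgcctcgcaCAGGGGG

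The letters CAGGGGG, the core of the motif known for Insm1, occurred on either strand in 6.65% of 32851 windows of this length. In the windows of the 10 genes there was 1 match in the printed window of Fgfr3 and none in its second window. That match was on the strand opposite to the gene and began at position -28 from the start. There was also 1 match in Dusp6, on the strand of the gene and beginning at position 24. The letters CCGGAAG, a core of ETS factor motifs, occurred on either strand in 8.86% of all windows and in 0 of the 10 windows of these genes, so no match to one motif overlapped the other. The Fgfr2 window is 43.7% G and C and that of Spred1 72.3%, against a median of 52.7% over all windows. These are letter matches in windows around annotated starts, and no binding was measured.

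Fgfr1 (ENSMUSG00000031565) lies on the plus strand of chromosome 8, from 25513654 to 25575718, in the GENCODE M21 annotation of GRCm38, and is a receptor needed for growth of the hippocampus and for midline glia. It was at 104, 112 and 105 CPM in controls 1, 2 and 3 and at 74.0, 72.8 and 71.6 CPM in Insm1 libraries 1, 2 and 3. The libraries of a group were close together and the groups were far apart, with a gap larger than the spread within either. The means were 107 ± 4.42 and 72.8 ± 1.20 CPM (SD, n = 3), a 1.47-fold fall (log2 fold change -0.56, standard error 0.071, edgeR adjusted p = 0.00536). Fgfr1 was called whichever 1 library was left out, at adjusted p between 0.00606 and 0.0314. It also passed the 12 other scalings, filters and tests that were run, with the highest adjusted p at 0.0470, from limma on deposited log2(TPM + 1).

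Fgfr2 (ENSMUSG00000030849) showed the largest change of the receptors. Its annotated gene runs on the minus strand of chromosome 7 from 130162451 to 133123350. It was at 91.1, 97.3 and 76.0 CPM in controls 1, 2 and 3 and at 40.4, 53.6 and 38.6 CPM in Insm1 libraries 1, 2 and 3. Insm1 library 2 was the highest of its group and control 3 the lowest of its own, and the groups stayed well apart. The means were 88.1 ± 10.9 and 44.2 ± 8.20 CPM (SD, n = 3), a 1.99-fold fall (log2 fold change -1.0, standard error 0.14, edgeR adjusted p = 0.00658). Fgfr2 was called with each library left out, with log2 fold changes between -1.16 and -0.91.

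The annotation of Fgfr2 bears on its counts. Of its 27 transcripts 1, Fgfr2-217, spans 2960900 bases, and the others all end by position 130266263 and cover 103813 bases. The long transcript has 2 exons beyond that point, and their 314 bases are exon sequence of Ctbp2, a corepressor gene on the same strand. Reads in those bases could be split, pooled or dropped, since the sources do not name the counting program. Ctbp2 was at 131 ± 4.43 CPM in the controls and 128 ± 6.53 CPM in the Insm1 libraries (SD, n = 3; edgeR adjusted p = 0.881), and its groups overlapped. Exons of Fgfr1, Fgfr3 and Spry1 overlap, over 164, 998 and 710 bases, only genes of the opposite strand that are not in the count table. The libraries keep no strand, so reads of those genes could be counted to Fgfr1, Fgfr3 and Spry1.

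Fgfr3 (ENSMUSG00000054252), on the plus strand of chromosome 5 from 33721674 to 33737068, was the receptor called by the narrowest margin. It was at 133, 108 and 128 CPM in controls 1, 2 and 3 and at 90.9, 94.7 and 71.9 CPM in Insm1 libraries 1, 2 and 3. Control 2 came nearest to the Insm1 group, and Insm1 library 3 stood below the other two of its group. The means were 123 ± 13.2 and 85.9 ± 12.2 CPM (SD, n = 3), a 1.44-fold fall (log2 fold change -0.52, standard error 0.12, edgeR adjusted p = 0.0385). The call was kept without control 2 (0.0150 in edgeR's adjusted p) and lost without control 1 (0.131), control 3 (0.162), Insm1 library 1 (0.0654), Insm1 library 2 (0.0574) or Insm1 library 3 (0.101). Its log2 fold change stayed between -0.61 and -0.41 over these 6 fits, and with the replicate number as a block edgeR's adjusted p was 0.0782.

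Whether the receptors changed by unequal amounts was asked from the ratios of their counts within each library, in which library scaling cancels. For Fgfr2 to Fgfr3, controls 1, 2 and 3 had ratios of 0.683, 0.897 and 0.593, whereas Insm1 libraries 1, 2 and 3 had 0.444, 0.566 and 0.537, and the groups did not overlap. Its log2 change was -0.48 (standard error 0.21), with an exact two-sided permutation p of 0.1, the smallest that 3 libraries against 3 allow. The Fgfr2 to Fgfr1 ratio was 0.822 ± 0.0842 in controls and 0.607 ± 0.112 in Insm1 libraries (SD, n = 3; exact permutation p = 0.2), with Insm1 library 2 inside the range of the controls. The Fgfr3 to Fgfr1 ratio was 1.16 ± 0.167 and 1.18 ± 0.155 (SD, n = 3; exact permutation p = 0.7). Adjusted over the 3 pairs the exact p-values were 0.3, 0.3 and 0.7. With 3 libraries against 3 no pair could have passed 0.05, so the test does not settle whether the receptors changed by different amounts.

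Levels of different genes were set side by side per kilobase of exon, merged over all annotated transcripts of a gene. On this scale Fgfr3 was the most abundant receptor in every library. Which transcripts were in use was not measured, and other lengths could give another order. In the controls Fgfr3 was at 17.2 ± 1.84, Fgfr1 at 10.8 ± 0.447 and Fgfr2 at 8.53 ± 1.06 CPM per kilobase of exon (SD, n = 3). In the Insm1 libraries these levels were 12.0 ± 1.71, 7.37 ± 0.121 and 4.28 ± 0.794 (SD, n = 3). The 3 receptors summed to 36.6 ± 1.20 CPM per kilobase in the controls and 23.6 ± 2.42 in the Insm1 libraries (SD, n = 3). Of that sum Fgfr2 made up 23.3 ± 2.86% in controls and 18.04 ± 1.96% in Insm1 libraries (SD, n = 3), and Fgfr3 47.0 ± 4.24% and 50.6 ± 2.54% (SD, n = 3). Fgfr4, the fourth kinase receptor of the family, had too few counts to be tested, at most 0.421 CPM in any library.

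Among the Sprouty genes none passed the test. Spry1 was at 7.61, 6.52 and 9.99 CPM in controls 1, 2 and 3 and at 6.95, 6.64 and 7.24 CPM in Insm1 libraries 1, 2 and 3, all 3 of which lay within the range of the controls. Its log2 fold change was -0.21 with a 95% interval from -0.68 to 0.26 (edgeR adjusted p = 0.694), and it was -0.022 without control 3 and -0.34 without control 2. Spry2 was at 5.89, 6.85 and 6.63 CPM in controls 1, 2 and 3 and at 7.14, 5.09 and 5.79 CPM in Insm1 libraries 1, 2 and 3, with Insm1 library 1 the highest of all 6. Its log2 fold change was -0.10 with a 95% interval from -0.58 to 0.37 (edgeR adjusted p = 0.870). These intervals include falls of 1.60-fold for Spry1 and 1.49-fold for Spry2, so changes of the size seen for Fgfr1 are not told apart from none.

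Spry4 was close to the limit of detection, with 17, 4 and 18 counts in controls 1, 2 and 3 and 26, 18 and 32 counts in Insm1 libraries 1, 2 and 3. It was the only gene of the 10 with a positive log2 fold change, 0.95, with a 95% interval from -0.45 to 2.35 (edgeR adjusted p = 0.513), and it was 0.53 without control 2. Control 2 stood apart with 4 counts, and Insm1 library 2 and control 3 both had 18.

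The Spred genes were both lower on average, and Spred1 fell. Spred1 (ENSMUSG00000027351), on the plus strand of chromosome 2 from 117121374 to 117182279, was at 135, 124 and 130 CPM in controls 1, 2 and 3. It was at 98.9, 96.6 and 87.5 CPM in Insm1 libraries 1, 2 and 3. Every control lay above every Insm1 library by more than the spread within a group. The means were 130 ± 5.70 and 94.3 ± 6.05 CPM (SD, n = 3), a 1.38-fold fall (log2 fold change -0.46, standard error 0.074, edgeR adjusted p = 0.0112). The call was kept without 5 of the libraries and lost without control 3 (edgeR adjusted p = 0.0563).

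Spred2 was at 22.2, 18.6 and 25.4 CPM in controls 1, 2 and 3 and at 18.9, 14.8 and 17.6 CPM in Insm1 libraries 1, 2 and 3. Control 2 was below Insm1 library 1, so the groups overlapped. The log2 fold change was -0.37 with a 95% interval from -0.71 to -0.022, and the adjusted p of 0.258 in edgeR did not pass. It was -0.25 without control 3. Per kilobase of exon Spred1 was at 19.1 ± 0.840 and Spred2 at 4.78 ± 0.729 CPM in the controls (SD, n = 3).

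Dusp6 (ENSMUSG00000019960), on the plus strand of chromosome 10 from 99263231 to 99267489, had a difference between the means close to that of Fgfr2 in fold, with a wider spread, and did not pass the test. It was at 12.3, 8.79 and 10.3 CPM in controls 1, 2 and 3 and at 3.17, 7.03 and 5.88 CPM in Insm1 libraries 1, 2 and 3. Insm1 library 1 was the lowest by a wide margin, and all 3 Insm1 libraries lay below control 2. The means were 10.5 ± 1.76 and 5.36 ± 1.98 CPM (SD, n = 3), with a log2 fold change of -0.97, a standard error of 0.29, a 95% interval from -1.60 to -0.33 and an edgeR adjusted p of 0.106. DESeq2 called it lower (adjusted p = 0.0214), where it called 4.42% of all genes lower, and the fits without single libraries gave log2 fold changes from -1.21 (without Insm1 library 2) to -0.70 (without Insm1 library 1) and edgeR adjusted p between 0.0842 and 0.271.

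Etv5, an ETS factor whose transcription follows FGF signalling in many embryonic tissues, was at 37.1, 42.1 and 32.6 CPM in controls 1, 2 and 3. It was at 30.7, 32.1 and 29.7 CPM in Insm1 libraries 1, 2 and 3. The groups did not overlap, but control 3 and Insm1 library 2 were less than 1 CPM apart. The log2 fold change was -0.27 with a 95% interval from -0.53 to -0.016, and edgeR's adjusted p was 0.259. Without control 2 the log2 fold change was -0.18. Its relatives Etv1 and Etv4 were at 15.3 ± 5.28 and 1.19 ± 0.421 CPM in the controls and 11.5 ± 1.96 and 1.08 ± 0.750 CPM in the Insm1 libraries (SD, n = 3), with overlapping groups.

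**Figure D2:**
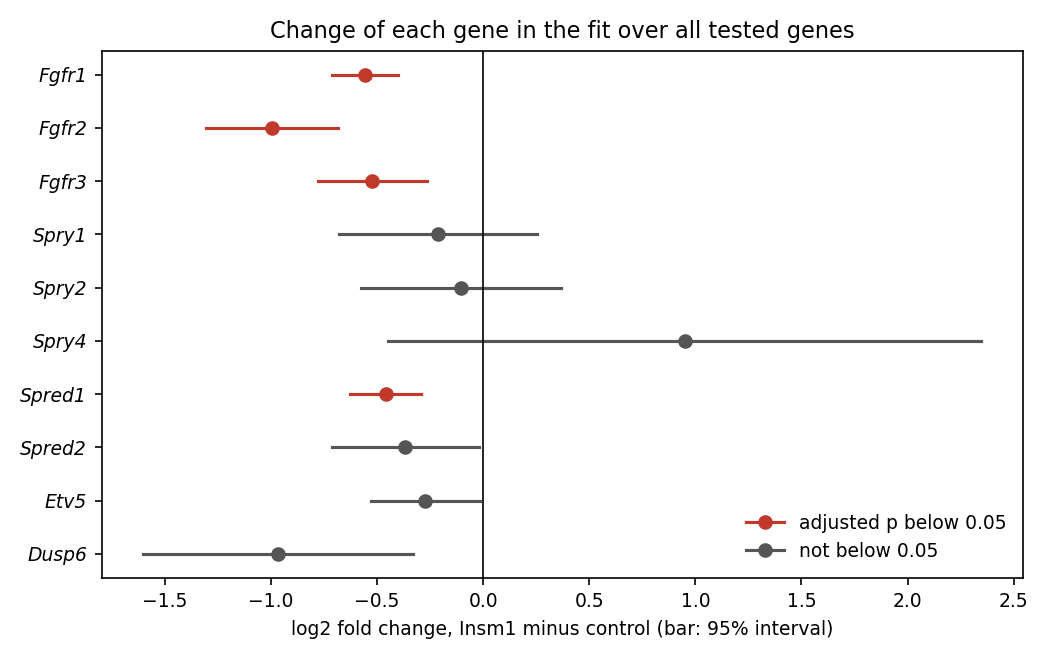
Log2 fold change (Insm1 minus control) of each of the 10 genes as a point, with its 95% interval as a bar, from the edgeR fit over 13560 genes. Genes called at an adjusted p below 0.05 are red: Fgfr1, Fgfr2, Fgfr3 and Spred1. The interval of Spry4 is the widest, from -0.45 to 2.35.

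Across the 10 genes the level per kilobase of exon ran, in the controls, from Spred1 at 19.1 ± 0.840 CPM through Fgfr3, Fgfr1, Etv5, Fgfr2, Spred2, Dusp6, Spry2 and Spry1 to Spry4 at 0.0889 ± 0.0535 CPM (SD, n = 3). Control libraries of neighbours in that order overlapped for Spred1 and Fgfr3, for Etv5 and Fgfr2, for Dusp6 and Spry2 and for Spry2 and Spry1. The other neighbours did not overlap. The deposited TPM give another order, as their length is the genomic span. Fgfr2 was at 0.272, 0.287 and 0.234 deposited TPM in controls 1, 2 and 3, ninth of the 10, because its annotated span is 28.5 times that of all its transcripts but the longest. Dusp6, with a span of 4259 bases, was second by deposited TPM, at 21.9 ± 3.77 (SD, n = 3), and seventh per kilobase of exon, at 3.34 ± 0.562 CPM (SD, n = 3).

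**Figure D3:**
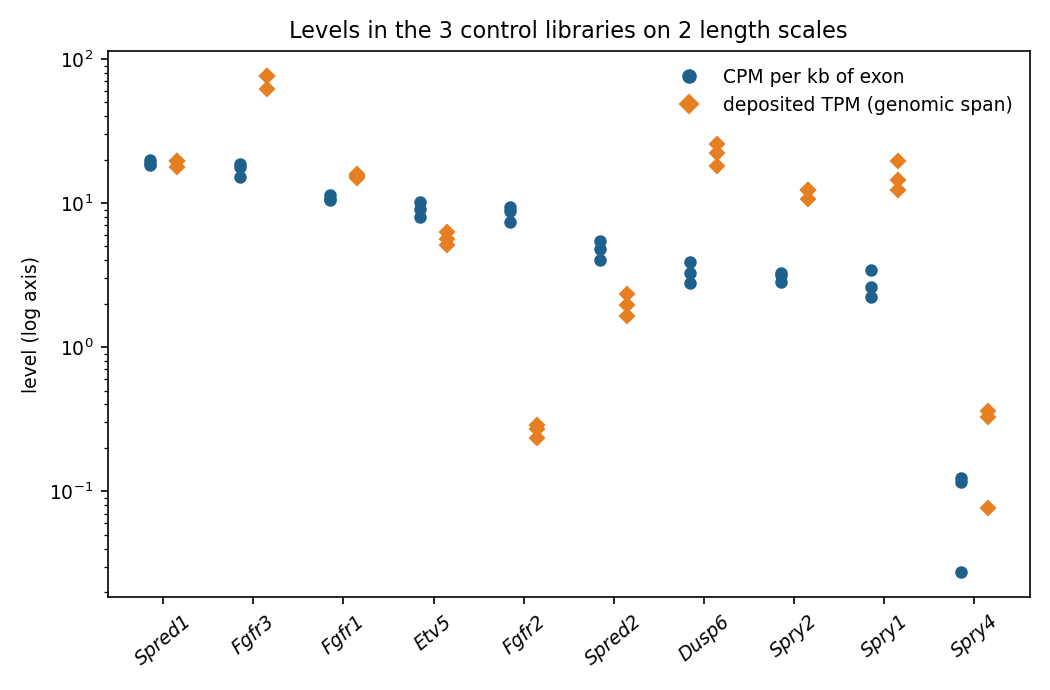
Levels of the 10 genes in the 3 control libraries (1 point per library, log axis), as CPM per kilobase of exon (blue circles) and as deposited TPM (orange diamonds), ordered by the former. Fgfr2 lies between 7.36 and 9.42 CPM per kilobase of exon and between 0.234 and 0.287 deposited TPM.

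Each receptor was compared with 149 tested genes of the FGF pathway, other receptor tyrosine kinase and marker lists, and not with the rest of the tested genes. Several of those that followed the receptors most closely were radial glia markers, which were themselves lower. Apart from radial glia markers, only Ntrk2 and Jun of these lists were called lower, so the makeup of the lists bears on which genes come closest. Of 18 radial glia markers 12 fell and 0 rose in edgeR's test, with 16 lower and 0 higher at an unadjusted p below 0.05 and 14 and 0 by DESeq2, with a median log2 fold change of -0.75, and their summed level was 4373 to 4961 CPM in the controls and 2918 to 3569 CPM in the Insm1 libraries. The most abundant of them, the Notch effector Hes5, was at 1260 ± 211 and 1165 ± 107 CPM (SD, n = 3) with overlapping groups. Ptprz1, a receptor phosphatase, Slc1a3, a glutamate transporter, and Fabp7, a fatty acid-binding protein, all called lower, had the patterns most like Fgfr1 over the 6 libraries (Pearson r of log2(CPM + 0.1) of 0.980, 0.979 and 0.977). For Fgfr2 the closest were Ednrb (0.976), Erbb2 (0.966) and Axl (0.965), and for Fgfr3 Aldoc (0.988), Fgf18 (0.977) and Vim (0.973), among 149 listed genes in each case. The 6 points share libraries and the difference between groups, so the correlations are a description.

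Each gene was also set against the summed radial glia markers of the same library, as a description. That sum was itself 1.43-fold lower in the Insm1 libraries (means of 4682 and 3283 CPM), so this scale lifts every gene in them alike, and a gene with a fall of about that size overlaps on it by construction. On this scale the Insm1 libraries lay wholly above the controls for 60.9% of all tested genes and wholly below for 1.87%, and of the genes wholly below in CPM 15.8% stayed so. Fgfr1 came to 2.10% to 2.40% of that sum in the controls and 2.07% to 2.45% in the Insm1 libraries. Fgfr3 came to 2.30% to 2.93% and 2.46% to 2.82%, and Spred1 to 2.63% to 2.97% and 2.77% to 3.00%. Fgfr2 came to 1.84%, 2.06% and 1.74% of the sum in controls 1, 2 and 3. It came to 1.13%, 1.59% and 1.32% in Insm1 libraries 1, 2 and 3, so its groups stayed apart. It was the 1 gene of the 10 wholly below the controls on this scale. That is 1 of the 6 that were wholly below in CPM, near the 15.8% found over all such genes. Abundant markers weigh most in the sum, and Hes5 alone was at 1260 CPM in controls and 1165 CPM in Insm1 libraries. The sum changed less (log2 change -0.51) than the median marker (log2 fold change -0.75). The separation of Fgfr2 is therefore stated for this sum alone, and other sums were not tested. Etv5 overlapped at 0.746% to 0.892% and 0.860% to 1.02%, and Dusp6 at 0.187% to 0.248% and 0.0887% to 0.209%. Markers of neurons summed to 7596 to 7892 CPM in the controls and 8770 to 9545 CPM in the Insm1 libraries, with 5 of 12 called higher and 0 lower, among them Tubb3, a neuronal tubulin, at 1746 ± 80.0 and 2285 ± 38.4 CPM (SD, n = 3). In the same list Mapt and Stmn2, genes of the neuronal microtubule system, had all Insm1 libraries below all controls without passing the test, at 86.1 ± 25.7 and 42.8 ± 8.25 CPM and at 192 ± 36.6 and 126 ± 22.0 CPM (SD, n = 3; edgeR adjusted p = 0.0592 and 0.0908). Those of basal progenitors summed to 2013 to 2272 and 2281 to 2474 CPM, with 3 of 9 called higher (Sstr2, Mfng and Nhlh1), 0 lower, and a median log2 fold change of -0.018. Elavl4, the most abundant of these, was at 447 ± 13.4 and 533 ± 53.2 CPM (SD, n = 3; edgeR adjusted p = 0.106). Genes of dissociation stress summed to 543 to 677 CPM in the controls and 455 to 488 CPM in the Insm1 libraries. The part of these markers in the results was not tested.

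**Figure D4:**
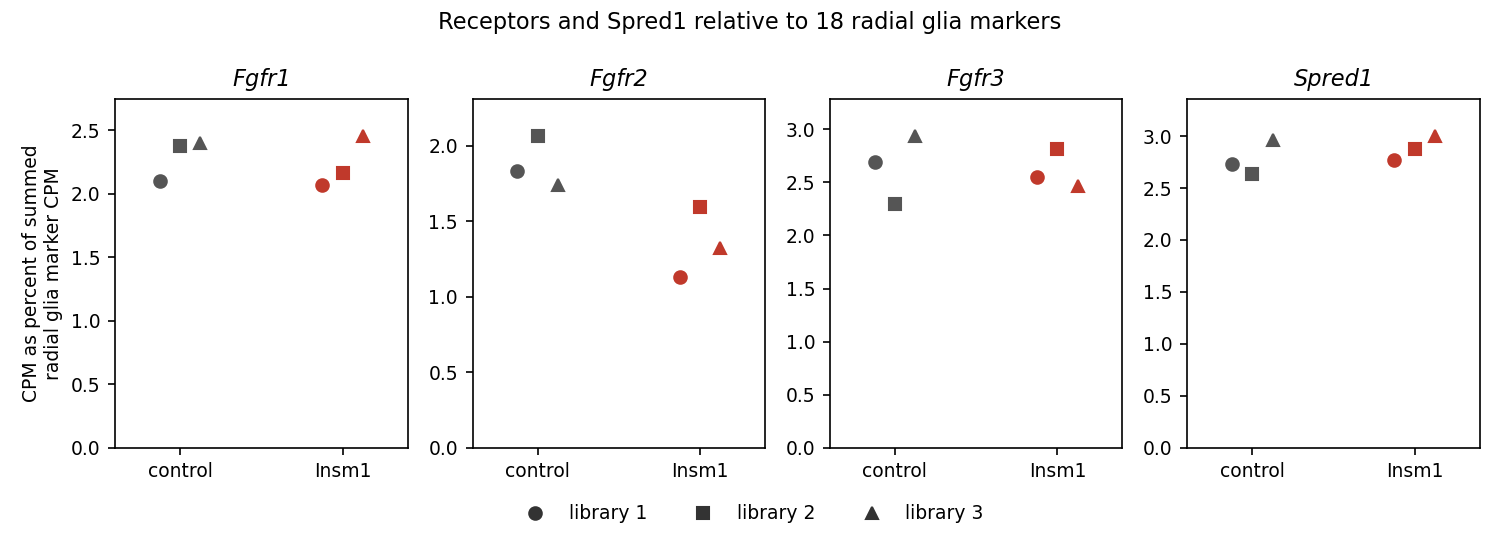
CPM of Fgfr1, Fgfr2, Fgfr3 and Spred1 as a percentage of the summed CPM of 18 radial glia markers in the same library (linear axes from 0), for 3 control (grey) and 3 Insm1 libraries (red), with a marker shape for the library number. The marker sum is itself 1.43-fold lower in the Insm1 libraries, which raises all genes alike on this scale. For Fgfr2 the Insm1 libraries are at 1.13% to 1.59% and the controls at 1.74% to 2.06%, and for Fgfr1, Fgfr3 and Spred1 the groups overlap.

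No gene of a further list for the FGF and ERK pathway was called by edgeR, and other lists could give another count. That list of 75 genes, ordered by role, had 58 with enough counts, of which 0 fell and 0 rose. Their lowest edgeR adjusted p was 0.0530 and their median log2 fold change -0.029. At an unadjusted edgeR p below 0.05, 6 were lower and 7 higher. In 6 of the 58 the Insm1 libraries lay wholly below the controls and in 11 wholly above, against 11.8% and 10.4% of all tested genes. DESeq2 called 2 lower (Fgf18 and Flrt2) and 4 higher (Dusp4, Ier2, Ksr2 and Myc), where it called 4.42% of all genes lower and 3.18% higher, and limma-voom called 0. Of 18 secreted ligands 5 could be tested, and all were at low levels. Fgf18 (log2 fold change -1.89) was at 5.50, 1.82 and 3.98 CPM in controls 1, 2 and 3 and at 0.873, 1.75 and 0.420 CPM in Insm1 libraries 1, 2 and 3 (edgeR adjusted p = 0.105), with control 2 close to Insm1 library 2. Fgf15, the tested ligand of highest mean over the 6 libraries, was at 3.63 ± 0.425 and 1.75 ± 1.09 CPM (SD, n = 3; edgeR adjusted p = 0.233). Fgf2, a mitogen of cortical progenitors in culture, had at most 0.131 CPM in any library and was not tested.

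The listed steps between receptor and nucleus gave no call in edgeR's test. Among other receptors and co-receptors Flrt3, an adhesion protein that binds FGF receptors, was at 216 ± 21.7 and 190 ± 5.11 CPM (SD, n = 3; edgeR adjusted p = 0.251), and Fgfrl1, a receptor with no kinase domain, at 17.0 ± 0.631 and 16.9 ± 0.653 CPM (SD, n = 3; edgeR adjusted p = 0.983). Of 10 adaptors none was called. The docking protein Frs2 was at 73.4 ± 5.70 and 80.6 ± 6.32 CPM (SD, n = 3), and Plcg1, a phospholipase bound by activated receptors, at 258 ± 18.1 and 288 ± 16.4 CPM (SD, n = 3). Of 14 genes of the Ras-ERK cascade none was called. Nras was at 350.5 ± 18.3 and 343 ± 8.86 CPM (SD, n = 3), with overlapping groups. Ksr2, a scaffold of the kinase cascade, had the highest log2 fold change of these genes, 0.75, and was at 4.22 ± 0.212 and 7.11 ± 0.901 CPM (SD, n = 3; edgeR adjusted p = 0.0904).

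The other listed negative regulators and ERK-linked transcription factors were not called by edgeR either. Of 12 further negative regulators 11 were tested. Dusp4, a nuclear phosphatase of ERK and the most abundant of them, was at 198, 150 and 148 CPM in controls 1, 2 and 3 and at 192, 233 and 228 CPM in Insm1 libraries 1, 2 and 3 (edgeR adjusted p = 0.118), with control 1 above Insm1 library 1. Il17rd, an inhibitor of FGF signalling at the membrane, was at 4.41 ± 1.48 and 4.17 ± 1.39 CPM (SD, n = 3; edgeR adjusted p = 0.947). Among 14 ERK-linked factors and targets Myc had the lowest adjusted p, with 34.5 ± 3.88 CPM in the controls, 47.8 ± 3.68 CPM in the Insm1 libraries (SD, n = 3) and an edgeR adjusted p of 0.0530. Egr1, an immediate early gene that also responds to tissue dissociation, was at 234, 113 and 119 CPM in controls 1, 2 and 3 and at 120, 119 and 155 CPM in Insm1 libraries 1, 2 and 3.

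Of 26 other receptor tyrosine kinases 18 were tested, 1 fell and 0 rose by edgeR (5 were lower and 4 higher at an unadjusted p below 0.05, and DESeq2 called 3 lower and 3 higher). Ntrk2, the receptor of the neurotrophin BDNF, fell 2.11-fold, from 54.1 ± 3.68 to 25.6 ± 4.01 CPM (SD, n = 3; edgeR adjusted p = 0.00525). Erbb2 was at 16.9 ± 0.501 and 10.4 ± 2.63 CPM and Axl at 30.7 ± 5.74 and 18.4 ± 3.64 CPM (SD, n = 3; edgeR adjusted p = 0.0786 and 0.0560). Ddr1, a collagen receptor and the most abundant of these kinases, was at 259 ± 15.4 and 332 ± 40.9 CPM (SD, n = 3; edgeR adjusted p = 0.0642). Whether the share of FGF receptors that fell differs from that of other kinases was not tested, since the lists were chosen with results known.

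**Figure D5:**
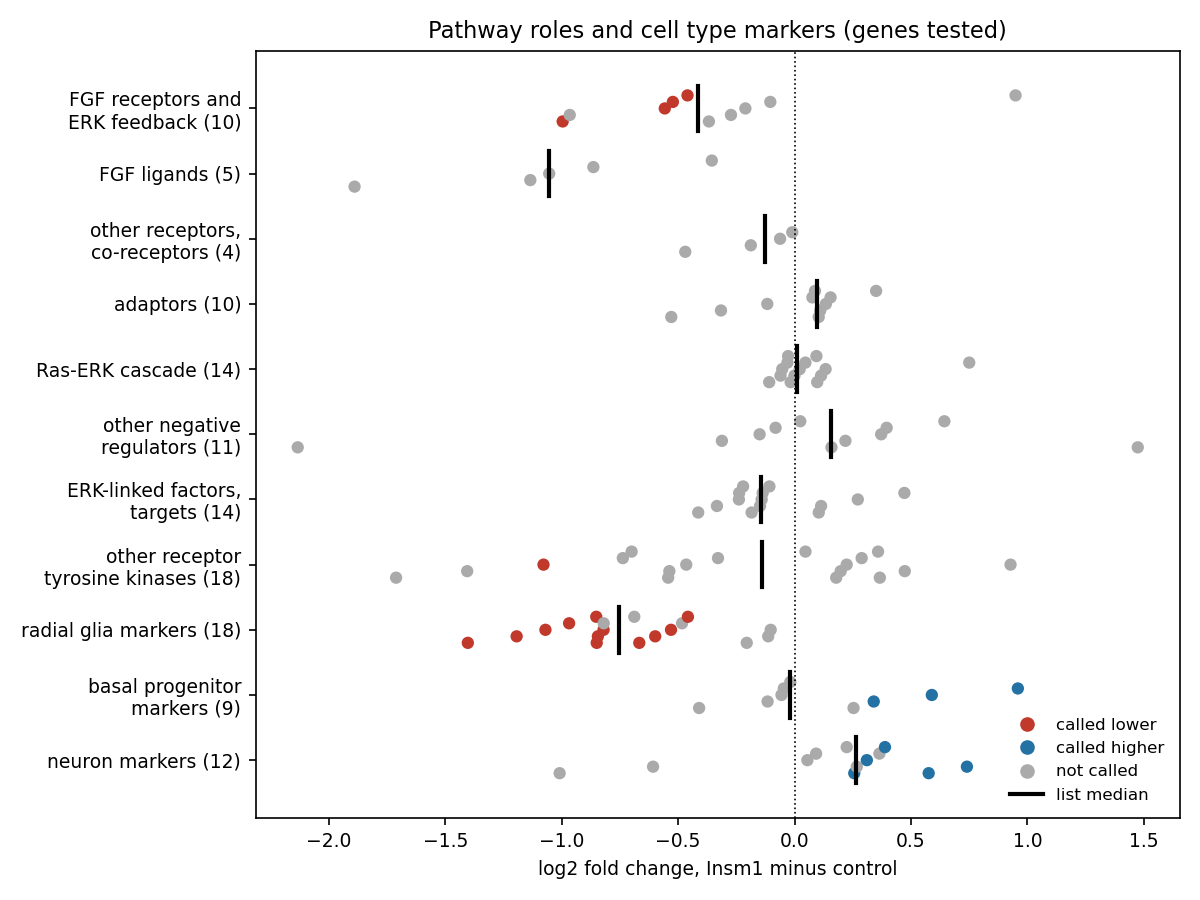
Log2 fold changes (Insm1 minus control) of tested genes by list, with the number tested in brackets, called genes in red (lower) or blue (higher) and a black bar at each list's median; vertical offsets only separate points. Calls within the FGF pathway lists shown are confined, in this test, to Fgfr1, Fgfr2, Fgfr3 and Spred1 in the top row, while 12 of 18 radial glia markers are red.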

How the data were processed

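RNA-seq was analysed from 6 libraries of mCherry-positive cells, 3 per group. Full-length cDNA from poly-dT priming had 12 amplification cycles before shearing and 15 after, and was read as single 75-base reads, per the labels' protocols. These libraries keep neither strand nor molecular identifiers, so genes overlapping on opposite strands cannot be told apart and a count is not a molecule. Per the submitters' processing notes, TopHat2 2.0.13, Bowtie, bcl2fastq and GRCm38 were used. The counting program is not given in the sources used here, nor is its annotation.

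The deposited files hold whole-number counts and TPM per gene. The length behind the deposited TPM was within 1% of the gene's genomic span in GENCODE M21 for 95.3% of 11957 genes and within 1% of the exon length for 1.01%, so levels were also computed per kilobase of merged exon.

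Counts were filtered by filterByExpr, scaled by TMM (factors 0.975 to 1.02) and tested with edgeR 4.0.16 in R 4.3.3 (robust quasi-likelihood, group only, two-sided). Alternatives used other scalings and filters, DESeq2 1.42.0, limma 3.58.1, a replicate block and single libraries left out. The fit was tested on simulated data. Named genes are the 10 genes, called pathway genes, the most abundant gene of each role or marker list, and the genes most like each receptor. Fgf2, Fgf18, Fgfr4, Fgfrl1, Flrt2, Ier2, Frs2, Ksr2, Il17rd, Myc, Etv1, Etv4, Erbb2 and Axl were added as examples after their values were seen, and so were Ctbp2, Mapt, Stmn2, Sstr2, Mfng and Nhlh1. The genes, lists and tests were chosen with earlier results of these data known.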

Additional observations from a re-analysis of the deposited data

How the results depend on the processing

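The log2 fold changes of Fgfr1, Fgfr2, Fgfr3 and Spred1 were negative in all 18 alternative fits each, and 4 of the 10 genes were called in every setting except those named here. The lower calls among the 10 numbered 5 with DESeq2, 3 with the replicate number as a block and 1 with limma on deposited log2(TPM + 1) or log2(TPM + 0.1), and from 2 to 4 with single libraries left out (2 without control 3, 3 without control 1 or any Insm1 library); none was called higher. Over all genes the 287 lower and 167 higher calls became 594 and 428 with DESeq2, 46 and 14 with log2(TPM + 1), 49 and 15 with log2(TPM + 0.1), and 73 to 418 and 43 to 227 with single libraries left out. With TPM recomputed by exon length, an alternative chosen after seeing the data, they were 290 and 99. The cause of the differences between tools was not tested. The log2 fold change of Spry2 ranged from -0.25 to 0.0020 and was above 0 only without Insm1 library 2. The change of the receptor ratios ranged from -0.59 to -0.37 for Fgfr2/Fgfr1, from -0.61 to -0.31 for Fgfr2/Fgfr3 and from -0.095 to 0.14 for Fgfr3/Fgfr1, below 0 without control 2 or Insm1 library 1 or 2. The labels do not say whether equal replicate numbers pair libraries. Deviations of same-numbered libraries had correlations of 0.0744, 0.0349 and -0.055, and those of differently numbered libraries lay between -0.0969 and 0.0647. With 3 libraries a group these values do not settle whether equal numbers share a batch. With the replicate block 216 genes were lower and 115 higher, and Fgfr3 was not called (edgeR adjusted p = 0.0782). Counts of 32 or fewer, as in Spry4, limit what could be seen.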

Other observations

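The log2 fold change of Fgfr2 was smaller on a log scale of deposited TPM. On log2(TPM + 1) it was -0.17 (limma adjusted p = 0.126) and on log2(TPM + 0.1) it was -0.69 (limma adjusted p = 0.120), whereas on log2(TPM + 1) recomputed by exon length, chosen after seeing the data, it was -1.01 (limma adjusted p = 0.0119). Fgfr3 and Spred1 had limma adjusted p of 0.102 and 0.0642 on deposited log2(TPM + 1) and of 0.0454 and 0.0162 on the recomputed values. A pseudocount of 1 exceeds the level of a gene deposited below 0.3 TPM, which by construction compresses its fold change.

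Jun, an immediate early gene like Egr1, was not on the pathway list and is read here as a sign of dissociation stress. It fell 1.43-fold, from 257 ± 25.6 to 180 ± 23.7 CPM (SD, n = 3; edgeR adjusted p = 0.0237), and was the 1 of 8 genes of dissociation stress that was called.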
